A study of Homo sapiens with 75 samples.

Results

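The arrays of 5 lymphoma lines before treatment were compared, with HBL1 and U2932 set against DHL4, DHL6 and LY7. The members are the 15 arrays labelled DMSO at 0 h, of 75 arrays in all, 3 for each line. HBL1 and U2932 gave 6 arrays and DHL4, DHL6 and LY7 gave 9. All 5 are established lines of diffuse large B-cell lymphoma (DLBCL), which arises from mature B lymphocytes. Each group was cultured in medium suited to its line and carries the vehicle DMSO as its label, with 0 h as the baseline of a study of R406, an inhibitor of the kinase SYK. The remaining 60 arrays, of DMSO and R406 at 6 and 24 h, also entered the filter on low levels and the error of each test at 0 h, and they show whether differences at 0 h were found again. A fit to the 15 arrays alone called 8477 genes in place of the 8526 given below. The labels do not say whether replicates A, B and C were separate cultures, so a spread between arrays may be technical.

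DLBCL is commonly divided by the B-cell state it resembles. The germinal centre type resembles B cells that mutate their antibody genes, in which the repressor BCL6 and the surface peptidase MME (CD10) are typical. The activated type resembles B cells on their way to plasma cells and is known for NF-kB activity and for the transcription factors IRF4 and BATF. HBL1 and U2932 are commonly classed as activated, and DHL4, DHL6 and LY7 as germinal centre type. This division is background knowledge and is not in the labels.

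The table names its rows by Ensembl gene identifier, and neither the table nor the gene reference used here pairs these identifiers with symbols. The 4 markers of the classes and the 27 gene lists written as symbols were therefore not analysed here, and the class of each line was not checked against its markers. The sets are called by their lines below. Each gene has a log2 expression value per array, made by the authors with RMA, a method that makes the distributions of arrays equal. Of 19536 genes, 11745 were tested, those whose highest group mean lay above 5.89, the median of all values. Array medians over the whole series ran from 5.84 to 5.97, and no array was identical to another. Precision is limited by the number of arrays and, for a statement about classes, by the number of lines.

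The lines did not fall into 2 blocks. The best match of every one of the 15 arrays was another replicate of the same line, and arrays of 1 line correlated at 0.992 to 0.998 over the 11745 genes. HBL1 and U2932 arrays correlated at 0.873 to 0.876, arrays of different lines among DHL4, DHL6 and LY7 at 0.868 to 0.906, and arrays across the sets at 0.831 to 0.891. Between line means, U2932 had r = 0.877 with HBL1, and 0.879, 0.892 and 0.891 with DHL4, DHL6 and LY7. By this measure U2932 was no closer to HBL1 than to any line of the other set. For DHL4 the order depended on the measure, since Spearman's rho was 0.869 between U2932 and HBL1 and 0.867 between U2932 and DHL4, and the median absolute log2 difference was 0.317 and 0.319. DHL6 and LY7 were closer to U2932 than HBL1 was by all 4 measures computed, with rho of 0.882 for each and median differences of 0.311 and 0.303. HBL1 stood farthest from the 3 lines, with r of 0.833 to DHL4, 0.856 to DHL6 and 0.843 to LY7. These correlations are descriptions over genes measured on the same arrays with shared probes, and genes are not independent replicates.

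**Figure D1:**
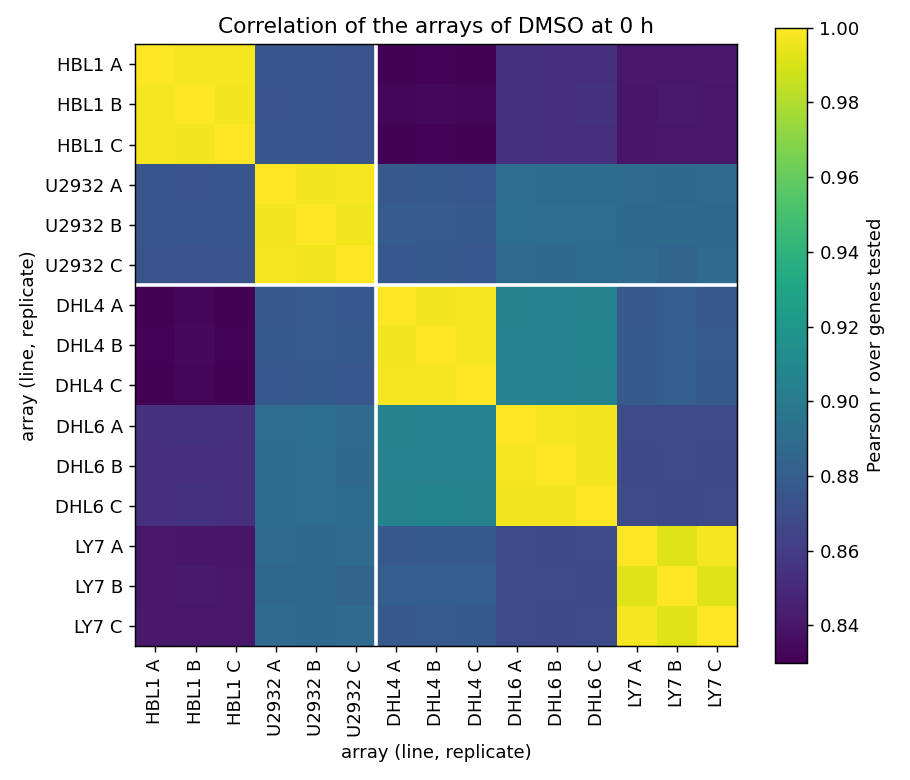
Pearson correlation over 11745 genes between each pair of the 15 arrays of DMSO at 0 h, ordered by line and replicate; white lines divide HBL1 and U2932 from DHL4, DHL6 and LY7. Blocks of 1 line lie at 0.992 or above, and the block of HBL1 with U2932 (0.873 to 0.876) is no higher than the blocks of U2932 with the other 3 lines.

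The same order held in DMSO at later times but not in R406. In DMSO, HBL1 and U2932 correlated at 0.876 at 6 h and 0.875 at 24 h, while U2932 had 0.885 to 0.896 with the other 3 lines at 6 h and 0.883 to 0.895 at 24 h. In R406 at 6 h the value for HBL1 and U2932 was 0.886, within the range of 0.876 to 0.893 for U2932 with the other set. At 24 h of R406 it was 0.876, within a range of 0.847 to 0.888. In both R406 conditions U2932 was therefore closer to HBL1 than to at least 1 line of the other set.

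Genes that differed 2-fold or more between line means were counted for each pair of lines at 0 h. HBL1 and U2932 differed in 1835 genes (15.6%), more than U2932 and DHL4 (1807 genes), U2932 and LY7 (1744) or U2932 and DHL6 (1673). HBL1 differed from DHL4 in 2252 genes, from LY7 in 2112 and from DHL6 in 1997. Among the 3 lines, DHL4 and DHL6 were nearest with 1491 genes, followed by DHL4 and LY7 with 1728 and DHL6 and LY7 with 1863. DHL6 and LY7, both classed as germinal centre type, thus differed in more genes than U2932 did from any of the 3 lines. For each gene, the share of the sum of squares of the 5 line means that lay between the sets had a median of 21.2%, with quartiles of 5.87% and 45.4%. It passed 50% for 2512 genes (21.4%). These shares were not computed for other splits of the lines, so it is not known whether they are particular to these sets.

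The mean of HBL1 and U2932 differed from the mean of DHL4, DHL6 and LY7 for most genes when the spread between arrays was the error. limma called 8526 of 11745 genes (72.6%) at an adjusted p under 0.05, with 4080 genes higher in HBL1 and U2932 (34.7%) and 4446 genes lower (37.9%). Differences of 2-fold or more were called for 1170 genes (9.96%), with 672 higher (5.72%) and 498 lower (4.24%). The median absolute log2 difference was 0.377 over called genes and 0.248 over all genes tested, against a median residual SD of 0.0916. Which direction held the majority of the 8526 calls was not settled, since the share that was higher was 47.9% as deposited, 50.0% with cyclic loess and 46.4% with array medians subtracted.

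This test treats the 5 lines as fixed, and it does not bear on other lines of the same classes. With the line as the replicate, 2 against 3 line means, limma called 6 genes (0.0511%), all higher in HBL1 and U2932, with log2 differences of 3.55 to 5.21 and adjusted p of 0.0101 to 0.0263. At an unadjusted p under 0.05 there were 845 genes (7.19%), 474 higher (4.04%) and 371 lower (3.16%). If no gene differed, a share of 0.05 of the genes would be expected under this threshold. An exact permutation test of a single gene over 5 lines has 10 splits. Its smallest p is 0.1 one-sided, and 0.2 where this is doubled for a two-sided test. A fit to the 15 arrays with the line as a random block called 223 genes, 127 higher and 96 lower, and the consensus correlation of arrays of 1 line was 0.937. Nearly all of the calls made over arrays were therefore not made over lines.

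Line means separated the sets for a smaller group of genes. Line means of both HBL1 and U2932 lay above those of all 3 other lines for 1327 genes (11.3%) and below them for 1550 (13.2%). Were the order of the lines unrelated to the sets, a share of 0.1 of the genes would be expected on each side. The shares found were not far above this, so separation alone does not mark a gene as particular to the sets. The stricter condition that no array of 1 set overlapped the other set was met by 774 genes on the high side (6.59%) and 682 on the low side (5.81%), 1456 in all (12.4%), and all of them were called. Of the 8526 called genes, 5853 had overlapping line means, which is 68.6% of the calls and 49.8% of all genes tested. Among the 1170 called genes with a difference of 2-fold or more, 499 (42.6%) had no overlapping array and 551 (47.1%) had overlapping line means.

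**Figure D2:**
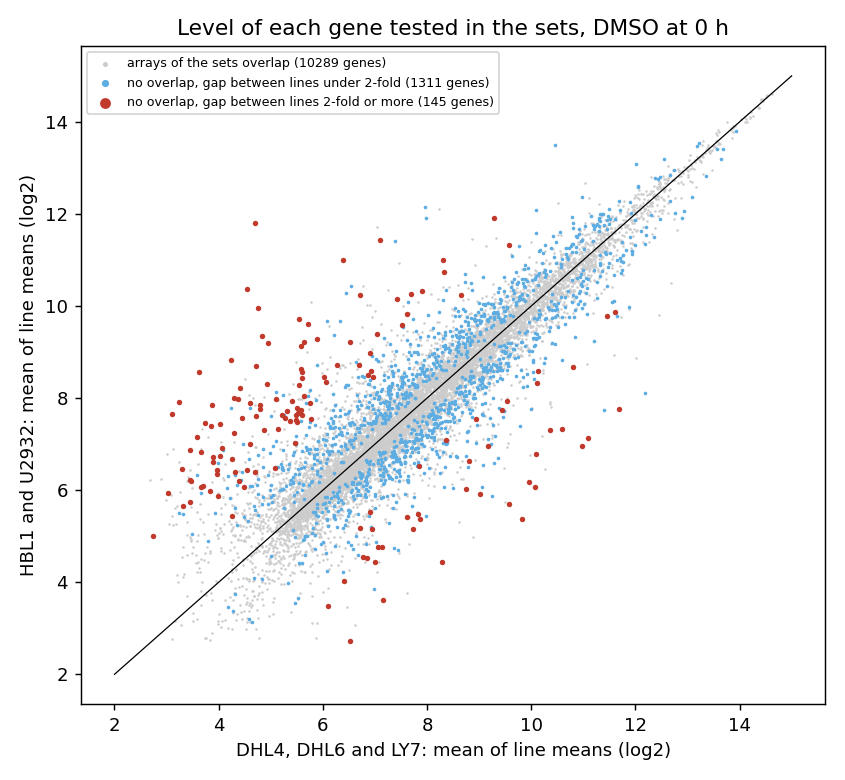
Level of each of the 11745 genes at 0 h on the log2 scale, with the mean of the DHL4, DHL6 and LY7 line means on the x axis and that of HBL1 and U2932 on the y axis; the line marks equal levels. Red points, 145 genes with no overlapping array and a 2-fold gap between the nearest lines, lie mostly above the line, 104 against 41, and many of those above it are low in DHL4, DHL6 and LY7.

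Genes with a wide gap were more often higher than lower in HBL1 and U2932. The gap is the distance between the nearest line means of the sets. It reached 2-fold without overlap of arrays for 145 genes (1.23%), 104 that were higher (0.885%) and 41 that were lower (0.349%). The split was 107 and 41 with cyclic loess and 103 and 43 with array medians subtracted. A gap of at least 2 on the log2 scale was found for 33 higher and 8 lower genes, and one of at least 3 for 11 higher genes and 1 lower gene. All of the 4 genes with a gap of at least 4 were higher in HBL1 and U2932. The sets hold 2 and 3 lines, and other splits of the lines were not tested. It is therefore not known whether the excess of higher genes is particular to these sets. Taken singly, HBL1 lay 2-fold or more above DHL4, DHL6 and LY7 for 442 genes and below them for 301. For U2932 these numbers were 304 and 130. These counts include the 104 and 41 genes.

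Many of the 104 higher genes lay below the filter level in the low set. The filter asked only for 1 group mean above 5.89, so a gene below it in a whole set was kept through arrays elsewhere, and the counts below describe genes admitted in that way. The median level of the 104 genes was 7.82 in HBL1 and U2932 and 4.93 in DHL4, DHL6 and LY7, and for 65 of them all 3 lines of the low set lay below 5.89, while for the other 39 at least 1 did not. The 41 lower genes had a median level of 6.03 in HBL1 and U2932 and 8.80 in the other lines, and for 17 of them both HBL1 and U2932 lay below 5.89. An on and off pattern around 5.89, with all 6 arrays of HBL1 and U2932 above it and all 9 others below, was found for 61 genes (0.519%). The opposite pattern was found for 24 genes (0.204%). These genes have no overlapping array by construction. The table used here gives no detection call, so it is not known whether levels below 5.89 lie above background, and the size and rank of differences that involve them are descriptions. At the other end, 7928 genes (67.5%) lay above 5.89 in all 15 arrays, and 1026 of them had no overlapping array.

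The gene with the widest gap was ENSG00000008394. It measured 11.42, 11.32 and 11.27 in HBL1 and 12.28, 12.20 and 12.32 in U2932, against 4.43, 4.40 and 4.50 in DHL4, 4.26, 4.61 and 4.19 in DHL6 and 5.46, 5.05 and 5.39 in LY7 (log2 levels of single arrays). All 6 arrays of HBL1 and U2932 were high and all 9 others lay below 5.89, with LY7 the highest among them. Its log2 difference was 7.10 ± 0.07 (SE, limma adjusted p = 1.10e-58), with a gap of 6.04 between HBL1 and LY7, the nearest lines of the sets. With the line as the replicate its adjusted p was 0.0501, just above the threshold of 0.05. U2932 was the higher of the pair, since HBL1 minus U2932 gave -0.93 (limma adjusted p = 1.45e-10).

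ENSG00000170558 had the next widest gap, 4.99. Its levels were 10.08, 9.94 and 10.14 in HBL1 and 9.92, 9.86 and 9.81 in U2932. In DHL4 they were 4.74, 4.96 and 4.93, in DHL6 4.85, 4.88 and 4.54, and in LY7 4.61, 4.57 and 4.68. The 2 high lines were close to each other, with a log2 difference of 0.19 for HBL1 minus U2932 that did not pass the threshold (limma adjusted p = 0.0682), and the 3 low lines all lay near 5. The difference between the sets was 5.21 ± 0.06 (SE, limma adjusted p = 1.68e-56). It was among the 6 genes called with the line as the replicate (limma adjusted p = 0.0101). The next gene in rank on the high side had a gap of 4.79.

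ENSG00000183624 had the widest gap among genes that were lower in HBL1 and U2932, at -3.00. It measured 5.78, 5.73 and 5.63 in HBL1 and 5.63, 5.53 and 5.93 in U2932, against 10.68, 10.77 and 10.78 in DHL4, 8.69, 8.84 and 8.62 in DHL6 and 9.29, 9.15 and 9.27 in LY7. The low lines were alike around 5.7, while the 3 high lines spread over about 2 log2 units with DHL4 on top. The difference between the sets was -3.86 ± 0.08 (SE, limma adjusted p = 8.27e-44). With the line as the replicate the adjusted p was 0.424.

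ENSG00000146233 followed with a gap of -2.82. Its levels were 4.53, 4.27 and 4.42 in HBL1 and 4.50, 4.51 and 4.47 in U2932. In DHL4 they were 8.14, 8.05 and 8.15, in DHL6 9.47, 9.45 and 9.34, and in LY7 7.39, 7.09 and 7.45. Both low lines lay below 5.89, and among the high lines DHL6 was highest and LY7 lowest. The difference was -3.83 ± 0.07 (SE, limma adjusted p = 1.92e-47), and with the line as the replicate the adjusted p was 0.424. On the low side the gap after these was -2.65. Levels of DHL4, DHL6 and LY7 differed from each other by the limma F-test for all 4 genes, with adjusted p from 3.65e-25 for ENSG00000146233 to 0.0356 for ENSG00000170558. For ENSG00000008394 and ENSG00000170558 these levels all lay below 5.89, where it is not known whether they exceed background.

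**Figure D3:**
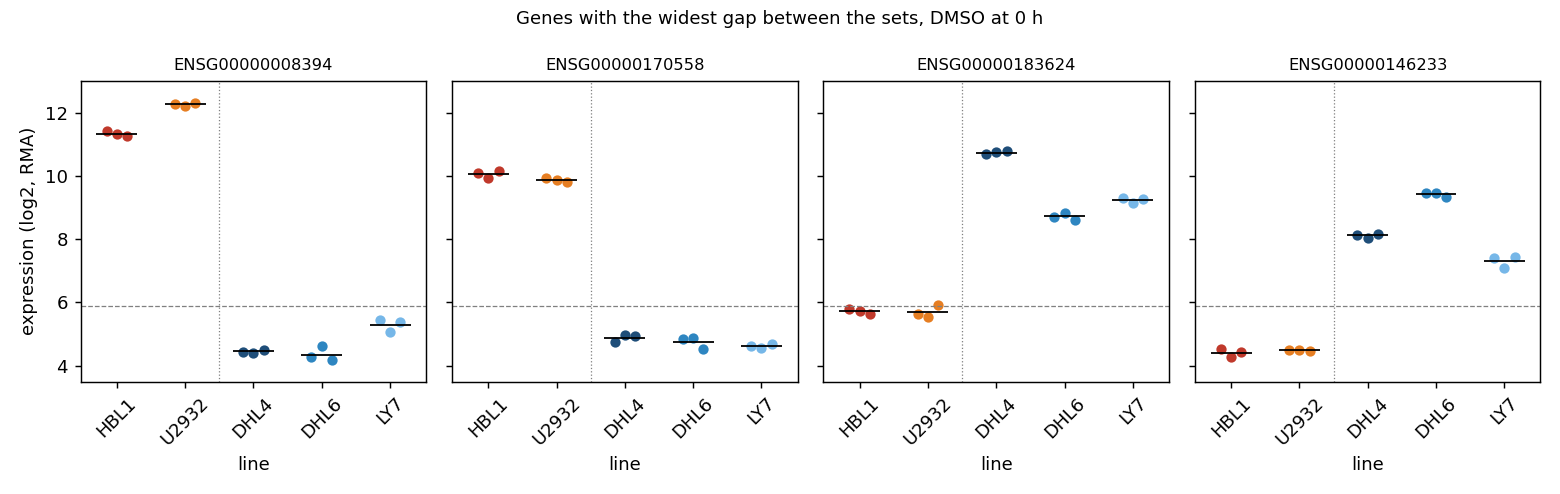
Log2 levels of the 4 genes with the widest gap in each of the 15 arrays of DMSO at 0 h, by line; points are replicates A, B and C, bars are line means, the dotted line divides the sets and the dashed line is the filter level of 5.89. ENSG00000008394 and ENSG00000170558 are high in HBL1 and U2932, ENSG00000183624 and ENSG00000146233 in DHL4, DHL6 and LY7, and no array crosses over.

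Most genes with a wide gap at 0 h were also without overlap in the other conditions. Over all genes, the difference between the sets was called for 8584 genes (73.1%) in DMSO at 6 h and 8430 (71.8%) at 24 h. These are further arrays of the same 5 lines, so they show how the lines differ over time and say nothing of other lines. Of the 145 genes, 142 had no overlapping array in the same direction in DMSO at 6 h and 142 at 24 h (97.9% each). In R406 the numbers were 139 at 6 h and 131 at 24 h (95.9% and 90.3%). A gap of 2-fold or more was kept by fewer of them, 106 in DMSO at 6 h (73.1%), 115 in DMSO at 24 h (79.3%), 102 in R406 at 6 h (70.3%) and 73 in R406 at 24 h (50.3%). Over all genes tested, such a gap without overlap was found for 1.10% to 1.40% in these conditions. Separation without a condition on its width held in all 5 conditions for 129 of the 145 genes (89.0%), 94 of the 104 higher and 35 of the 41 lower. Over all genes tested, the share with no overlapping array was 10.4% in DMSO at 6 h, 12.0% in DMSO at 24 h, 16.9% in R406 at 6 h and 15.6% in R406 at 24 h.

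A smaller share of the whole group was found again. Of all 1456 genes without overlap at 0 h, 879 had none in DMSO at 6 h (60.4%), 1004 in DMSO at 24 h (69.0%), 928 in R406 at 6 h (63.7%) and 773 in R406 at 24 h (53.1%), and 488 (33.5%) in all 5 conditions. Line means lay in the opposite order in full for only 1 of them in DMSO at 6 h, 1 in DMSO at 24 h and 4 at each time of R406. The 4 genes described above kept the direction of their difference in DMSO, and a change of its size from 0 to 6 h was not tested. ENSG00000008394 had 7.07 at 6 h and 7.05 at 24 h, ENSG00000170558 had 4.77 and 5.08, ENSG00000183624 had -3.43 and -3.68, and ENSG00000146233 had -3.80 and -3.97. The change of the difference between 24 and 0 h did not pass the threshold for any of the 4, with limma adjusted p of 0.825, 0.362, 0.334 and 0.388 in the same order. Over all genes, the difference between the sets changed from 0 to 24 h in DMSO for 2130 genes (18.1%), and by 2-fold or more for 11 (0.0937%).

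These 4 genes were chosen for the widest gap at 0 h, so a smaller gap in another condition can follow from the choice. In DMSO their gaps, in the order above, were 6.00, 4.64, -2.16 and -2.08 at 6 h. At 24 h of DMSO they were 5.93, 5.02, -2.94 and -2.36. All 4 genes had smaller gaps in R406 at 24 h than at 0 h or at either time of DMSO. The gap was 5.19 for ENSG00000008394 and 4.08 for ENSG00000170558, and it was -0.44 for ENSG00000183624 and -0.63 for ENSG00000146233, both under 2-fold. ENSG00000183624 then averaged 5.82 ± 0.31 in HBL1 and 6.03 ± 0.17 in U2932, against 9.77 ± 0.023 in DHL4, 6.47 ± 0.036 in DHL6 and 8.35 ± 0.10 in LY7 (SD, n = 3 each). DHL6 thus lay close above HBL1 and U2932. ENSG00000146233 averaged 4.35 ± 0.13 in HBL1 and 4.81 ± 0.12 in U2932, against 8.11 ± 0.18 in DHL4, 8.89 ± 0.18 in DHL6 and 5.43 ± 0.084 in LY7 (SD, n = 3 each). Here LY7 was the line that came near.

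Lines within a set also differed from each other. The counts that follow are of unlike form, 1 line against another and a range over 3 lines, and they do not compare directly with the 1170 genes (9.96%) that differed 2-fold or more between means of 2 and 3 lines. HBL1 minus U2932 was called for 7956 genes (67.7%), with 3972 higher (33.8%) and 3984 lower (33.9%) in HBL1, and by 2-fold or more for 1835 (15.6%). Levels of DHL4, DHL6 and LY7 differed by the limma F-test for 9510 genes (81%), and over a range of 2-fold or more for 2944 (25.1%). Of the 145 genes with a wide gap, HBL1 and U2932 differed in 111, by 2-fold or more in 56. DHL4, DHL6 and LY7 differed in 111 as well, with a range of 2-fold or more in 52. A clear gap between the sets therefore did not mean equal levels within them.

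U2932 was most often the line that kept a called difference from separating the sets. Leaving out U2932 alone would separate the sets for 2635 of the 5853 called genes with overlapping line means (45.0%). The number was 2189 for HBL1 (37.4%), 1281 for LY7 (21.9%), 1193 for DHL6 (20.4%) and 859 for DHL4 (14.7%). For 380 genes (6.49%) no single line would do it. A set of 2 lines has only 1 left after such a step, so HBL1 and U2932 compare with each other and not with the other 3. Among the 551 genes with a difference of 2-fold or more, U2932 would separate 310 (56.3%) and HBL1 195 (35.4%).

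**Figure D4:**
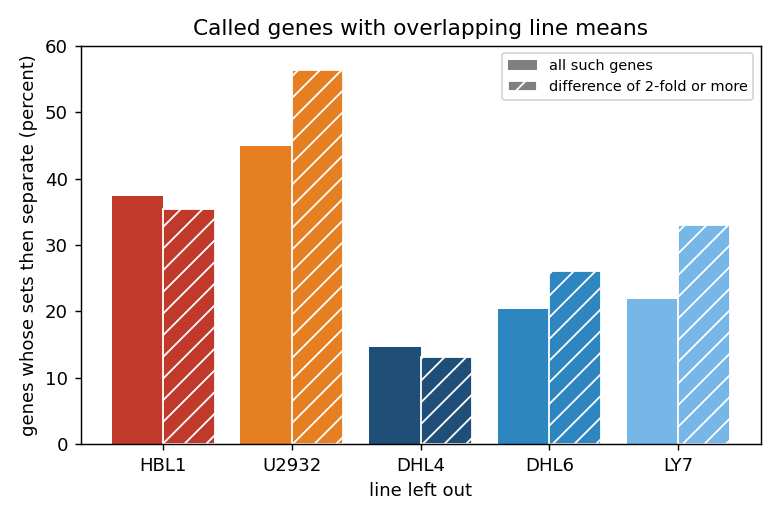
Percent of called genes with overlapping line means whose sets separate once the line on the x axis is left out, for all 5853 such genes (plain bars) and the 551 with a difference of 2-fold or more (hatched bars). U2932 gives the highest bars, 45.0% and 56.3%.

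HBL1 also lay farther out than U2932. Over the 1170 called genes with a difference of 2-fold or more, the median log2 distance from the mean of DHL4, DHL6 and LY7, in the direction of the set, was 1.77 in HBL1 and 1.29 in U2932. HBL1 was the farther line for 737 of them (63.0%) and U2932 for 433. HBL1 lay above all 3 lines by 2-fold or more for 442 genes, and U2932 was not above them for 210 of these. U2932 lay above by 2-fold or more for 304 genes, and HBL1 was not above them for 122. On the low side, HBL1 lay below all 3 lines by 2-fold or more for 301 genes, with U2932 not below for 155, and U2932 for 130 genes, with HBL1 not below for 46. Without U2932 the number of called genes with a difference of 2-fold or more was 1782, and without HBL1 it was 1280, in place of 1170.

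A few human RNAs can be named, because the array's control probe sets carry their names. The 13 control probe sets of human RNAs used here were tested with the variance prior of the genes, and p was adjusted over genes and controls together. Of these 13, 10 were called, 3 higher and 7 lower in HBL1 and U2932, a share close to the 72.6% of all genes. Groups of arrays did not overlap for 3 of them, against 1456 of the 11745 genes tested (12.4%). All 3 were probe sets of beta-actin, which forms the actin filaments of the cell. They measure the same RNA and do not count as separate genes.

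Beta-actin was lower in HBL1 and U2932 over its whole length. The middle probe set measured 12.51, 12.55 and 12.62 in HBL1 and 12.36, 12.36 and 12.35 in U2932, against 13.41, 13.41 and 13.41 in DHL4, 12.99, 12.99 and 13.04 in DHL6 and 13.12, 13.15 and 13.14 in LY7. All 6 arrays lay below all 9, with U2932 lowest and DHL4 highest. The log2 difference was -0.73 ± 0.042 (SE, limma adjusted p = 6.03e-23). The 5-prime probe set averaged 12.19 in HBL1 and 11.77 in U2932, against 13.22 in DHL4, 12.46 in DHL6 and 12.91 in LY7, a difference of -0.89 ± 0.067 (SE, limma adjusted p = 8.03e-18). The 3-prime probe set averaged 13.50 and 13.30 in HBL1 and U2932, against 14.00, 13.81 and 13.87 in DHL4, DHL6 and LY7, a difference of -0.49 ± 0.022 (SE, limma adjusted p = 4.15e-28). With the line as the replicate none of the 3 passed, with limma adjusted p of 0.648 to 0.682. The middle probe set passed with the line as a random block (limma adjusted p = 0.0402), while the 5-prime and 3-prime ones did not (0.129 and 0.155).

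Beta-actin kept this order in DMSO and lost it in R406 at 24 h. In DMSO the middle probe set had a difference of -0.73 at 6 h and -0.66 at 24 h, without overlap of arrays at either time. In R406 at 24 h it averaged 12.48 in HBL1 and 12.23 in U2932, against 13.30 in DHL4, 12.16 in DHL6 and 12.15 in LY7. For this probe set the means of DHL6 and LY7 thus lay below those of HBL1 and U2932, with arrays of DHL6 and U2932 overlapping. For the 3-prime probe set DHL6 (13.40) and LY7 (13.36) lay between HBL1 (13.49) and U2932 (13.31). One reading of RNA quality is how far the 3-prime signal of an RNA exceeds its 5-prime signal. For beta-actin this was 1.32 ± 0.044 in HBL1 and 1.53 ± 0.13 in U2932. It was 0.778 ± 0.052 in DHL4, 1.36 ± 0.097 in DHL6 and 0.950 ± 0.028 in LY7 (SD, n = 3 each). This measure did not separate the sets, since DHL6 lay above HBL1, and it was lowest in DHL4 and LY7. For GAPDH the same measure was 0.173 ± 0.029 in HBL1 and 0.22 ± 0.029 in U2932. In DHL4, DHL6 and LY7 it was 0.179 ± 0.019, 0.201 ± 0.0046 and 0.22 ± 0.016 (SD, n = 3 each). By GAPDH, HBL1 was thus lowest, and the lines did not have the order they had for beta-actin. The part of RNA quality in the differences between the sets was not tested.

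**Figure D5:**
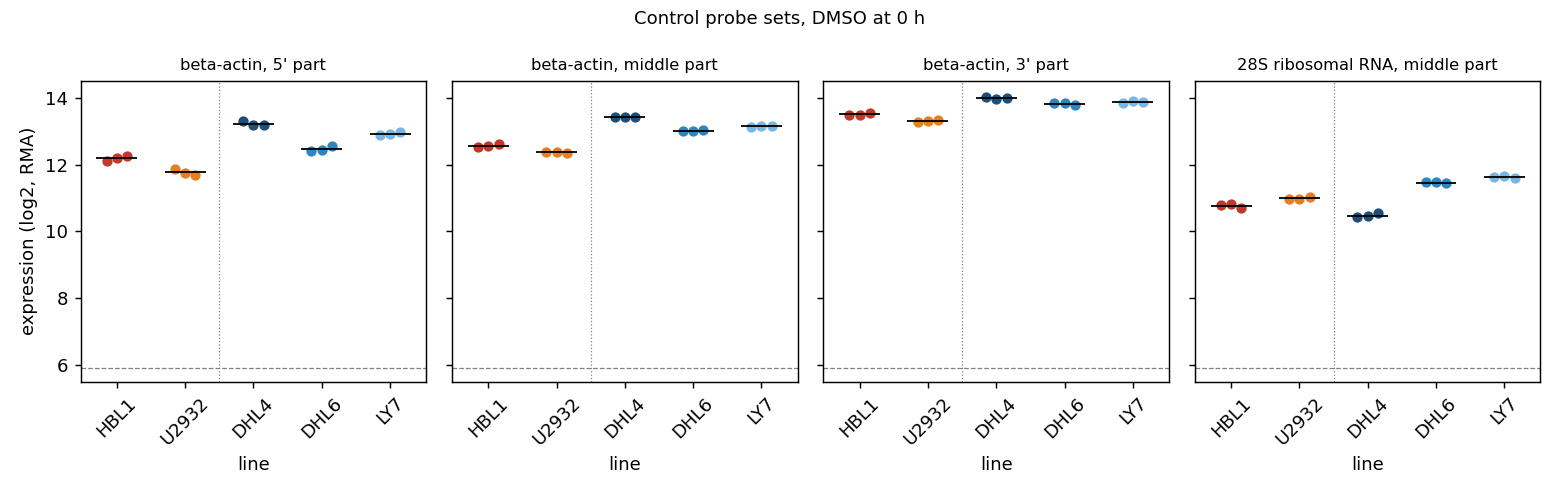
Log2 levels of the 3 beta-actin probe sets and of the middle probe set of 28S ribosomal RNA in the 15 arrays of DMSO at 0 h, by line; points are replicates, bars are line means, the dotted line divides the sets and the dashed line is the filter level of 5.89. Beta-actin is lower in all 6 arrays of HBL1 and U2932, while 28S is lowest in DHL4 and highest in LY7.

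GAPDH, a glycolytic enzyme, and the ribosomal RNAs did not separate the sets. The GAPDH probe sets lay at 13.87 to 14.28 in all lines, near the highest value of the table, 14.76, and each differed by 0.05 between the sets (limma adjusted p = 0.00356 to 0.00778). Neither HBL1 nor DHL6 could be left out without the loss of these 3 calls. HBL1 and DHL4 were the high lines for the middle GAPDH probe set, at 14.28 and 14.25. The middle probe set of 28S ribosomal RNA averaged 10.77 in HBL1 and 10.99 in U2932, against 10.47 in DHL4, 11.46 in DHL6 and 11.63 in LY7. HBL1 and U2932 thus lay between DHL4 and the other lines, with a difference of -0.31 ± 0.034 (SE, limma adjusted p = 4.22e-12). This value depended on the lines, with -0.19 without HBL1, -0.67 without DHL4, -0.17 without DHL6 and -0.09 without LY7, and it did not pass with the line as a random block or as the replicate (limma adjusted p = 0.778 and 0.892). For 18S ribosomal RNA the 3-prime probes averaged 11.53 and 12.17 in HBL1 and U2932, against 11.86, 12.58 and 12.60 in DHL4, DHL6 and LY7, a difference of -0.49 ± 0.070 (SE, limma adjusted p = 7.61e-09). Without HBL1 it was -0.18 (limma adjusted p = 0.0716), without U2932 -0.81 and without DHL4 -0.74. It did not pass with the line as a random block or as the replicate (limma adjusted p = 0.578 and 0.799). The 5-prime and middle 18S probe sets were not called at 0 h, with differences of -0.02 and -0.14 (limma adjusted p = 0.783 and 0.0651).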

How the data were processed

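The deposited table holds log2 values, 1 per gene and array. Per the submitters' processing notes, the authors used RMA. Version, probe set definition and build are not given in the sources used here. Entries are 19536 genes and 62 control probe sets. The gene reference has 59792 rows, of which 0 carry an Ensembl identifier, so the planned rule for named genes and the 27 lists could not be used. In their place the 2 identifiers with the widest gap in each direction are printed, taken from called genes without overlapping arrays. Members and lists were chosen with earlier results of these data known.

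limma 3.58.1 (R 4.3.3) estimated 1 mean for each of 25 groups from the 75 arrays (50 residual degrees of freedom, eBayes, two-sided, Benjamini-Hochberg over the 11745 genes). Lines weigh equally within a set. The fit was tested on simulated data without spread between the lines of a set, so that test does not bear on such spread. Control tests were added after their values had been seen. Some control probe sets are not reported here. Alternatives were other scalings, filters and priors, array weights, the replicate letter as a block, the line as random block or as replicate, and leaving out each array or line.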

Additional observations from a re-analysis of the deposited data

How the results depend on the processing

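Over the other scalings, filters, priors, array weights, fits to the 15 arrays and fits without 1 line, the number of genes called at 0 h stayed within 1.5 times 8526. Exceptions were the line as random block (223 genes, 127 higher and 96 lower) and the line as replicate (6, 6 and 0), and the stricter filter, which tests fewer genes, called 2954 lower. Leaving out 1 array gave 8341 to 8521 calls, 4001 to 4079 higher and 4328 to 4442 lower. This includes LY7 replicate B, whose residual SD of 0.160 was the highest of the 15 arrays. With the replicate letter as a block, 8553 genes were called. Deviations of arrays with the same letter in different lines correlated at -0.118 to 0.430 (median 0.0497, 11 of 30 pairs over 0.1). With different letters they correlated at -0.363 to 0.274 (median -0.018, 5 of 60 pairs over 0.1). When these deviations were matched between different lines only, the closest partner carried the same letter for 11 of 15 arrays. The letters were not taken as pairs in the main fit, and a shared effect of the letter may be present. With the line as replicate, 10 genes were called with array medians subtracted and 11 with a trend and robust prior (6 as deposited), and the cause was not tested. Without HBL1 the GAPDH differences turned to -0.02, -0.04 and -0.03 (3-prime, 5-prime and middle). The 5-prime 18S difference of -0.02 turned to 0.02 without U2932, 0.0083 without DHL4, and with 1 array left out it ran from -0.05 to 0.0089, the highest without U2932 replicate C, and the 5-prime 28S difference of -0.29 to 0.05 without LY7. The causes of these changes of sign were not tested. With 3 arrays a line and 5 lines, the number of lines limits the precision of any statement about the classes.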
